A study of Mus musculus with 6 samples.

Results

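The genes described here form the control circuit of the G1 phase of the cell cycle: the 3 D cyclins (Ccnd1, Ccnd2, Ccnd3), their partner kinases (Cdk4, Cdk6), 3 inhibitors of cyclin-dependent kinases (Cdkn1a, Cdkn1b, Cdkn2c) and the pocket proteins Rb1 and Rbl1. They were chosen by name, as the rows of the deposited table whose gene symbol was exactly 1 of these 10 names, which gave 12 probe sets among the 28853 on the array, or 10 of 20805 gene names that stand alone on a probe set. The series measured mammary epithelial cells of pregnant mice on Affymetrix MoGene 1.0 ST arrays, 1 array per mouse. All mice carried a floxed insulin receptor gene (IRfl/fl), so the controls hold the floxed allele too. The 3 IRfl/fl Cre- mice (numbers 1, 2 and 4) lacked the transgene, and the 3 IRfl/fl Cre+ mice (5, 6 and 7) expressed Cre recombinase from the promoter of BLG (beta-lactoglobulin), a milk protein gene. The females had been mated with CD1 males, and cells were released with collagenase on day 13.5 of pregnancy. The labels do not give the age of the mice or the share of cells in which Cre had acted.

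D cyclins are made when mitogens and hormones reach a resting cell. They bind Cdk4 or Cdk6, and the active kinases phosphorylate Rb1 and its relatives, which then release E2F transcription factors and let the genes of DNA replication be transcribed. Cdkn2c (p18) holds Cdk4 and Cdk6 apart from the cyclin, while Cdkn1a (p21) and Cdkn1b (p27) bind cyclin-kinase complexes. In the mouse mammary gland, cyclin D1 is known for its part in the growth of alveoli during pregnancy.

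Sequences of the promoters are shown first for the members on which the results or their contrast turn. Of the 10 members, 7 matched the RefSeq promoter table (GRCm38.p6, 250 bases before to 50 after a gene start), with 10 promoters, and Ccnd1, Ccnd2 and Rb1 did not. The promoters were searched on both strands for 4 words of the E2F site, TTTCGCGC, TTTCCCGC, TTTGGCGC and TTTGCCGC, and for the E-box CACGTG, the site of Myc and related factors, with the promoters already in view. Only Rbl1 among the 7 held an E2F word. The 250 bases before its start (chr2:157204535-157204784, minus strand) are given with that word, at -18 to -11 from the start, in capitals.
Rbl1: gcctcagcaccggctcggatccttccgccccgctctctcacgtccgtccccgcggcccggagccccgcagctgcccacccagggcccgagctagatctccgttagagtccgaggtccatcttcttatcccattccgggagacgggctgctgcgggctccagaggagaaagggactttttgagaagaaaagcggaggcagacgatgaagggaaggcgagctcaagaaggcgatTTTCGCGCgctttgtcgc
The same 250 bases of Cdk4 (chr10:127063285-127063534, plus strand) held no E2F word and 4 E-boxes, shown in capitals, the first at -172 and the last at -11.
Cdk4: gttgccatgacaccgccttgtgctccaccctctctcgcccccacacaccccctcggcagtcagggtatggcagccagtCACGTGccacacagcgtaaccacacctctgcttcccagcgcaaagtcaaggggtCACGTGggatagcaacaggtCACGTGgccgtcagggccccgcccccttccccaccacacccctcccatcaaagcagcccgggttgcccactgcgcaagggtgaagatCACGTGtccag
Among the other members, an E-box was also found for Cdk6 (at -220) and Cdkn2c (at 35). Among all 32851 promoters of the table, 2.26% held an E2F word and 7.15% an E-box. A word is a match of letters, and no binding was measured here.

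As a check of the labels, Insr, the targeted gene, was read first. Its intensity at probe set 10576692 was 111 ± 9.93 in Cre- and 58.0 ± 12.0 in Cre+ cells (SD, n = 3 and 3), a log2 change of -0.95 (SE 0.15), and no Cre+ value reached a Cre- value. At the second Insr probe set, 10576696, the difference was smaller, with 81.6 ± 4.68 in Cre- and 57.0 ± 3.86 in Cre+ cells (SD, n = 3 and 3), a log2 change of -0.52 (SE 0.09), again without overlap. The labels do not say whether its probes lie in the deleted part of the gene. The labelled cell type, mammary alveolar cell, had its defining markers on every array, since the mean log2 level of 12 luminal alveolar markers was between 9.86 and 10.07 in Cre- and between 8.60 and 9.06 in Cre+ cells. Other cell types were present too. The mean log2 level of 10 basal myoepithelial markers was between 7.13 and 7.71 in Cre- and between 7.98 and 8.06 in Cre+ cells, that of 10 fibroblast markers between 5.54 and 6.47 and between 6.31 and 6.73. In such mixtures, fewer cells of a type and less RNA per cell cannot be told apart. In limma, fitted over 16921 probe sets of which 4.17% passed adjusted p under 0.05 (2.03% higher and 2.14% lower in Cre+), 9 of the 12 luminal alveolar markers fell, 4 of the 10 basal markers rose and 1 of the 10 fibroblast markers rose. Of 9 macrophage markers 2 rose and 1 fell, and in the other 5 marker lists none passed.

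Of the 10 genes, Ccnd1 and Rbl1 were higher in Cre+ cells past the test and 8 were not called. Of all tested probe sets 4.17% passed, 2.03% with a higher level in Cre+. All 12 probe sets were tested. Their median log2 change was 0.14, against 0.00 for all tested probe sets, and 10 of the 12 changes were above 0. An unadjusted p under 0.05 was reached by 4 of the 12 (Ccnd1, Cdk6, Rb1 and Rbl1), where 20.0% of all tested probe sets reached it. The 2 genotypes were fully separated at 4 of the 12 probe sets (Ccnd1, Cdkn1a, 1 of the Cdkn1b pair and 1 of the Rbl1 pair), against 25.7% of all tested probe sets, so that count was near the background.

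**Figure D1:**
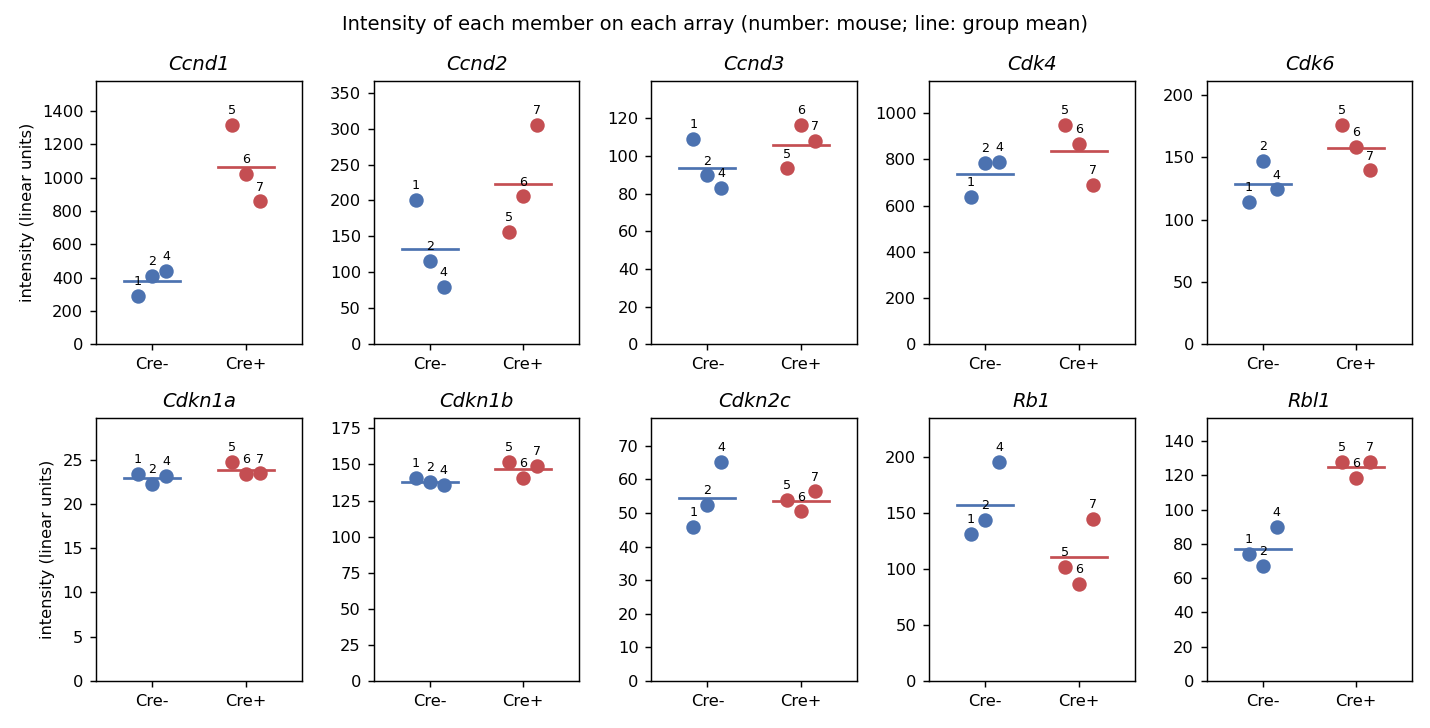
Linear intensity of each member's brightest probe set on each array, with Cre- mice in blue and Cre+ mice in red, the mouse number above each point and a line at the group mean. Ccnd1 and Rbl1 are the members called by the fit, Ccnd2 and Rb1 spread widely within both groups, and the 3 CDK inhibitors lie close to the same level in both.

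Ccnd1, the gene of cyclin D1, had intensities of 290.2, 410.2 and 438 in Cre- mice 1, 2 and 4, and of 1316, 1019.8 and 857 in Cre+ mice 5, 6 and 7. The lowest Cre+ value was well above the highest Cre- value. The group means were 379 ± 78.5 and 1064 ± 233 (SD, n = 3 and 3). On the log2 scale the change was 1.49 (SE 0.20, 95% interval 1.04 to 1.94), 2.81-fold, with adjusted p = 0.0134 in limma, the sixth largest rise among the tested probe sets (rank 6). The exact permutation test over the 6 arrays gave p = 0.1 (the minimum for this design). The authors' deposited table gives Ccnd1 a ratio of 2.81 and p = 0.0085 (unadjusted t test on linear intensity). The call was lost without Cre+ 5 (adjusted p = 0.0580) and without Cre+ 6 (0.0703), with changes of 1.32 and 1.51. These fits called 46 and 52 probe sets in all, against 706 with all 6 arrays. The changes with any 1 array left out lay between 1.31 and 1.63. On the same arrays the basal marker mean was higher in all Cre+ than in all Cre- mice, by 0.57 on average, and the luminal alveolar mean was lower, by 1.18, without overlap in either. Adipocyte and luminal hormone-sensing marker means were also separated, 0.66 and 0.18 higher in Cre+, and the fibroblast mean was 0.62 higher with overlap. The adipocyte separation was narrow, with a highest Cre- mean of 5.44 and a lowest Cre+ mean of 5.47. The median change of the 7 adipocyte markers was 0.17, with Car3 at 2.26 and Cfd at 1.16, and 0 passed in limma. No marker is listed at 0 in this table, and the part of these cell types in the Ccnd1 difference was not tested.

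Ccnd2 encodes cyclin D2, which in the mouse also drives the division of B lymphocytes. Its intensities were 201, 116 and 79.4 in Cre- mice 1, 2 and 4 and 157, 206 and 305 in Cre+ mice 5, 6 and 7. The groups overlapped, because Cre- 1 lay above Cre+ 5. The log2 change was 0.80 (SE 0.35, 95% interval -0.01 to 1.62), 1.75-fold, with adjusted p = 0.257 in limma. The mean log2 level of the 11 lymphocyte markers was 6.91, 5.38 and 5.20 in Cre- 1, 2 and 4, and 4.81, 5.43 and 6.31 in Cre+ 5, 6 and 7, the same order within each genotype as Ccnd2. The fibroblast and endothelial marker means followed that order in both genotypes too, and they were higher in Cre+ on average (by 0.62 and 0.34, with overlap), while the lymphocyte mean was lower by 0.31. The part of these cell types in the Ccnd2 values was not tested. None of the 11 lymphocyte markers passed the test in limma, and 0 had an unadjusted p under 0.05. With Cre- 1 and Cre+ 7 both left out, Ccnd2 differed by 0.90 (SE 0.19, n = 2 and 2) and passed, with adjusted p = 0.0392 in limma. Cre- 1 was the array that made the groups overlap, so this fit removed the overlap and gives no separate support. With single arrays left out the change lay between 0.49 (without Cre- 4) and 1.16 (without Cre- 1), and it did not pass in any of these 6 fits. A brighter probe set that names Ccnd2 together with Gm7308 differed in the other direction, with 710 ± 117 in Cre- and 624 ± 36.3 in Cre+ cells (SD, n = 3 and 3) and overlapping groups.

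**Figure D2:**
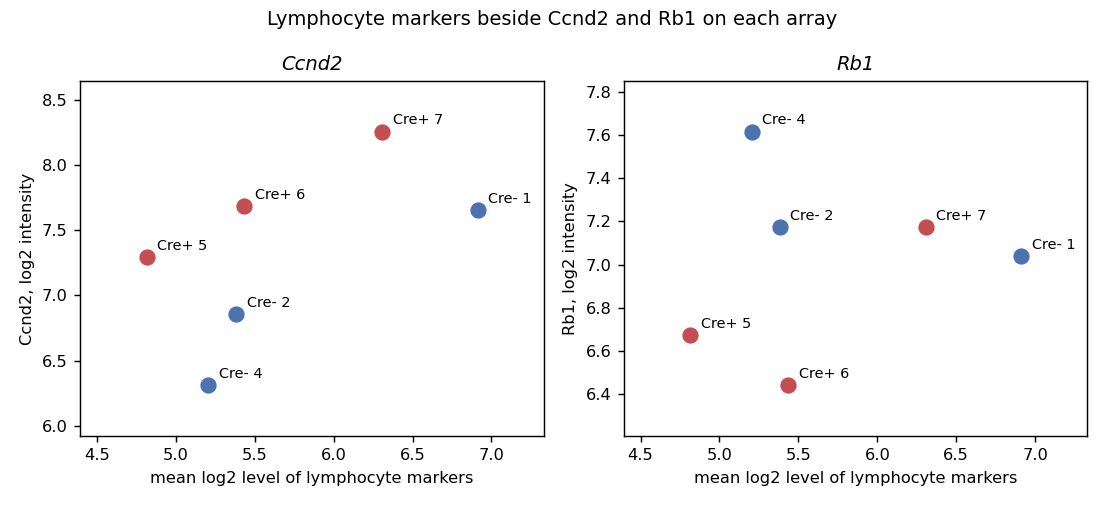
Log2 intensity of Ccnd2 (left) and Rb1 (right) against the mean log2 level of 11 T and B lymphocyte markers on each of the 6 arrays, Cre- in blue and Cre+ in red. Ccnd2 is higher on arrays with more lymphocyte marker signal within each genotype, an order that fibroblast and endothelial markers share, and Cre- 1 and Cre+ 7, at 6.91 and 6.31, stand to the right of the other arrays.

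Ccnd3, the gene of cyclin D3, had intensities of 109, 89.7 and 82.9 in Cre- and 93.5, 117 and 108 in Cre+ cells. The groups overlapped. The log2 change was 0.18 (SE 0.13, 95% interval -0.12 to 0.48) with adjusted p = 0.510 in limma, and the interval leaves out a change as large as that of Ccnd1.

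Whether the cyclins changed unequally was read from their log2 ratios within each array, for 3 pairs. The log2 ratio of Ccnd1 over Ccnd3 was 1.41, 2.19 and 2.40 in Cre- and 3.82, 3.13 and 2.99 in Cre+ mice, 1.31 higher in Cre+ with no overlap (exact permutation p = 0.1, the smallest possible). Over Ccnd2 it was 0.68 higher with overlap (exact permutation p = 0.5), and the ratio of Ccnd2 over Ccnd3 was 0.62 higher with overlap (exact permutation p = 0.3). The exact permutation test cannot go below 0.1 with 3 against 3 arrays, so it can call none of the 3 pairs at 0.05.

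Cdk4, the kinase that all 3 D cyclins activate, had intensities of 639, 786 and 789 in Cre- and 949, 868 and 688 in Cre+ cells, and the groups overlapped. Its log2 change was 0.17 (SE 0.14, 95% interval -0.15 to 0.49; adjusted p = 0.565 in limma). This is the gene with the 4 E-boxes shown above, and Myc itself, named after its value was seen, had a log2 change of 0.13 (SE 0.10, adjusted p = 0.549 in limma). A link of Myc or of E-boxes to these values was not tested. For Cdk6, the second kinase partner, the values were 114, 147 and 124 in Cre- and 176, 158 and 139 in Cre+ cells. Cre- 2 lay above Cre+ 7, so these groups overlapped as well. The Cdk6 change was 0.30 (SE 0.12, 95% interval 0.01 to 0.59), 1.23-fold, with adjusted p = 0.235 in limma.

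**Figure D3:**
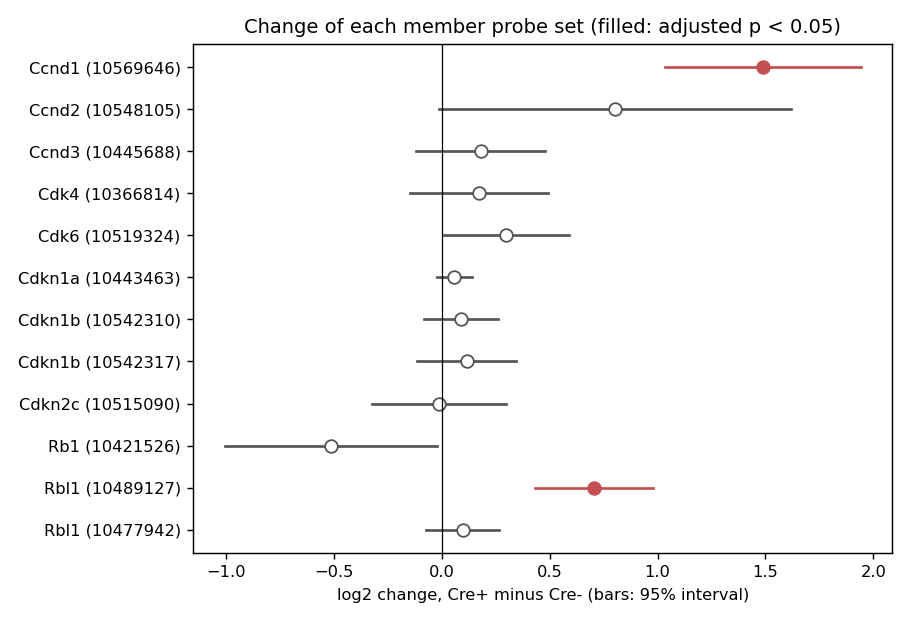
Log2 change (Cre+ minus Cre-) of the 12 member probe sets with 95% intervals from the limma fit, filled red where the adjusted p was under 0.05. Ccnd1 at 1.49 and 1 of the Rbl1 probe sets at 0.71 are filled, and Rb1 is the member with the lowest value, -0.51.

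The log2 differences of the 3 inhibitors were all small, 0.12 at most in size. Cdkn1a intensity lay between 22.2 and 23.4 in Cre- and between 23.4 and 24.8 in Cre+ cells, close to the filter level of 22.4, near the lowest intensities of the table. Its log2 change of 0.06 (SE 0.03, adjusted p = 0.401 in limma) became 0.19 when 16 was taken off every intensity before log2. The adjusted p in limma lay between 0.135 and 0.598 over the alternatives that keep every array. The filter at the 50th percentile left this gene untested. Cdkn1b, measured by 2 probe sets, had intensities of 140.5, 138 and 136 in Cre- and 152, 140.5 and 149 in Cre+ cells at the brighter one, 10542310. All Cre+ values were above all Cre- values there, with Cre- 1 and Cre+ 6 equal at the precision printed. The log2 changes of the Cdkn1b probe sets were 0.09 (SE 0.07, 95% interval -0.08 to 0.26) and 0.12 (SE 0.10, 95% interval -0.11 to 0.34), with adjusted p = 0.571 and 0.592 in limma. Cdkn2c was at 45.9, 52.4 and 65.3 in Cre- and 53.9, 50.5 and 56.4 in Cre+ cells. The Cre+ values all fell inside the Cre- range, and the change was -0.01 (SE 0.13, 95% interval -0.32 to 0.30; adjusted p = 0.978 in limma).

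Rb1, the retinoblastoma gene, had intensities of 132, 144 and 196 in Cre- mice 1, 2 and 4 and 102, 87.0 and 144 in Cre+ mice 5, 6 and 7. Cre+ 7 reached the Cre- values, and Cre+ 5 and Cre+ 6 lay below them all. The log2 change was -0.51 (SE 0.21, 95% interval -1.0 to -0.02), 1.43-fold lower, with adjusted p = 0.229 in limma. With Cre- 1 and Cre+ 7 left out together the change was -0.84 (SE 0.16, n = 2 and 2) and passed, with adjusted p = 0.0268 in limma. Cre+ 7 was the array that reached the Cre- values, so this fit removed the overlap and gives no separate support. With single arrays left out the change of Rb1 lay between -0.72 (without Cre+ 7) and -0.34 (without Cre- 4) and did not pass.

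Rbl1 encodes p107, a pocket protein that rises in dividing cells and restrains E2F factors. At probe set 10489127 its intensities were 74.1, 67.1 and 89.9 in Cre- and 128, 119 and 128 in Cre+ cells. The Cre+ values lay close together and above all Cre- values, with group means of 77.0 ± 11.7 and 125 ± 5.40 (SD, n = 3 and 3). The log2 change was 0.71 (SE 0.12, 95% interval 0.43 to 0.98), 1.63-fold, with adjusted p = 0.0248 in limma and exact permutation p = 0.1. The authors' deposited table gives Rbl1 a ratio of 1.62 and p = 0.003 (unadjusted t test on linear intensity). Rbl1 no longer passed when Cre- 2 was left out (adjusted p = 0.0848), nor when Cre+ 5 (0.0970), Cre+ 6 (0.0847) or Cre+ 7 (0.0666) was, with changes between 0.61 and 0.74 in these 4 fits. Over all tested probe sets the 4 fits called 118, 46, 52 and 291, against 706 with all arrays. The other Rbl1 probe set, 10477942, was dim, between 23.2 and 28.9 on all arrays, with a log2 change of 0.10 (SE 0.07, adjusted p = 0.529 in limma).

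**Figure D4:**
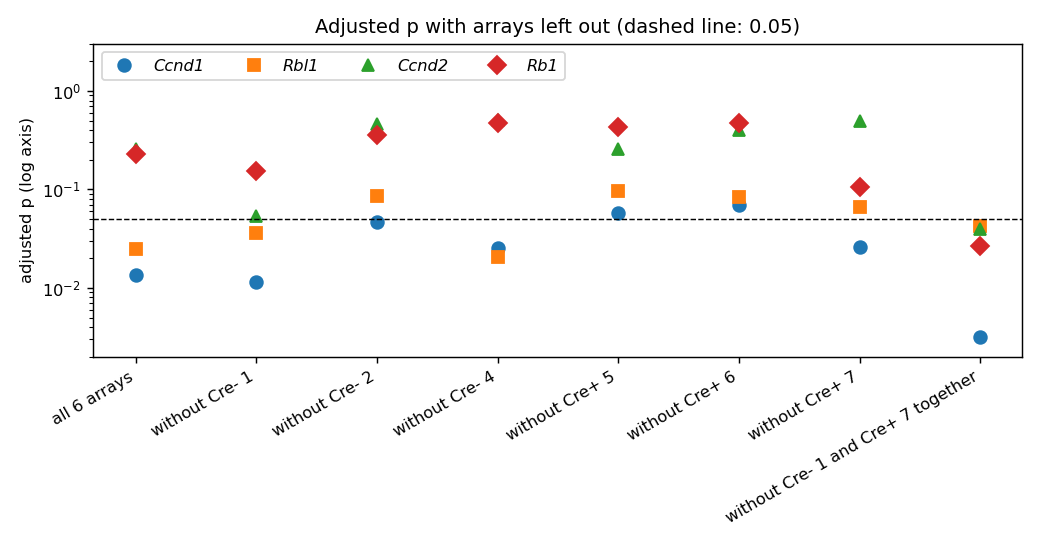
Adjusted p from limma on a log axis for Ccnd1, Rbl1, Ccnd2 and Rb1 with all 6 arrays, with each array left out in turn, and with Cre- 1 and Cre+ 7 left out together, against the threshold of 0.05 (dashed). Ccnd1 crosses the line without Cre+ 5 or Cre+ 6, and in the last fit the 4 genes lie between 0.00314 and 0.0422, all below it. That fit leaves out the arrays at which the groups overlapped for Ccnd2 (Cre- 1) and Rb1 (Cre+ 7).

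The genes around this circuit were described from 6 lists chosen with earlier results of these data known, each gene by its brightest probe set naming 1 gene, and 16 of the 99 tested genes passed the test (14 rose, 2 fell). Of all tested probe sets 4.17% passed and 20.0% had an unadjusted p under 0.05 in limma. Of 5 further inhibitors and pocket proteins, 0 passed in limma and 1 had an unadjusted p under 0.05, namely Cdkn1c (p57), at 43.0, 44.8 and 39.1 in Cre- and 47.5, 57.8 and 58.0 in Cre+ cells (0.36, SE 0.11, adjusted p = 0.110). The list's median change was -0.02. Among 20 cyclins, kinases and E2F factors of S phase entry, 3 rose and 0 fell, 12 of 20 had an unadjusted p under 0.05, and the median change was 0.26 against 0.00 for all tested probe sets. Ccne1, the gene of cyclin E1, which acts after the D cyclins, was at 46.4, 47.7 and 42.1 in Cre- and 67.8, 64.8 and 67.9 in Cre+ cells (0.56, SE 0.08, adjusted p = 0.0202 in limma). E2f8, a repressing E2F factor (0.49, SE 0.07), and Tfdp1, the DNA-binding partner of E2F factors (0.55, SE 0.11), also rose. None of the 3 passed without Cre- 2, Cre+ 5 or Cre+ 6. Those fits called 118, 46 and 52 probe sets in all, against 706 with all arrays. Without Cre- 4, Ccne1 (adjusted p = 0.0532) and E2f8 (0.0509) missed the threshold as well, and without Cre+ 7, Ccne1 (0.0536) and Tfdp1 (0.0941) did. Tfdp1 also missed it without Cre- 1 and Cre+ 7 together (0.0549).

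Of 17 replication genes that E2F factors are known to regulate, 9 rose and 0 fell, all 17 changes were above 0, and the median was 0.67. Mcm6, a subunit of the replicative helicase, was at 129.3, 129.1 and 187 in Cre- and 390, 325 and 284 in Cre+ cells. All Cre+ values were above all Cre- values, and the change was 1.18 (SE 0.17, adjusted p = 0.0190 in limma), the largest of the list. Pcna, the sliding clamp of DNA polymerases, rose by 0.81 (SE 0.10), Mcm4 by 0.98 (SE 0.12), Mcm3 by 0.91 (SE 0.12), Mcm2 by 0.77 (SE 0.14) and Cdc6, which loads the helicase, by 0.68 (SE 0.10). With Cre- 2 left out 2 of these genes passed, and with Cre+ 5 or with Cre+ 6 left out 0 did. Over all tested probe sets these fits called 118, 46 and 52, against 706 with all arrays, so calls were lost in general. Of 16 replication genes with a RefSeq promoter, 7 held an E2F word, as did 6 of the 13 risen genes of all lists that have one. The replication list was chosen for known E2F regulation, and Mcm3, Mcm6, Cdc6 and Pola1 of the risen genes with a word belong to it. The other risen genes with a word, Tfdp1 and Dtl, come from lists chosen with earlier results of these data known. Neither count is separate evidence. Both counts are per gene, while the 2.26% given above is per promoter. For Mcm6 and Cdc6, 30-base stretches are shown to set beside the Rbl1 promoter, with the word in capitals. They lie at chr1:128359797-128359826 and chr1:128359734-128359763 (both minus strand) and chr11:98908002-98908031 (plus strand), and in Cdc6 the word TTTCCCGC reads on the opposite strand.
Mcm6, word at -110: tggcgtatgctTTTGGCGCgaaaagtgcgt
Mcm6, word at -47: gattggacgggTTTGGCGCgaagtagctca
Cdc6, word at -138: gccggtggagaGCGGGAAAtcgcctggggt
In the first Mcm6 stretch a further word, TTTCGCGC on the opposite strand from -106, overlaps the one in capitals.

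For the mitosis list, 0 of 15 genes passed in limma and 1 had an unadjusted p under 0.05, Bub1, a spindle checkpoint kinase (0.51, SE 0.16, adjusted p = 0.119). The groups overlapped for 14 of the 15, and the median change was 0.14. The proliferation marker Mki67, named after its values were seen, was at 103, 124 and 260.3 in Cre- mice 1, 2 and 4 and 201, 204 and 229 in Cre+ cells, so that Cre- 4 lay above every Cre+ mouse. Cre- 4 was the highest control for 15 of the 15 mitosis genes and lay above all Cre+ mice for 13 of them. It was also the highest control for every tested replication gene except Ung. For Mcm7, Tk1 and Cdt1 of that list it lay above Cre+ 7, the lowest Cre+ mouse there. With Cre- 4 left out, Mki67 was the only mitosis gene to pass, with a change of 0.90 (SE 0.12, adjusted p = 0.0252 in limma), and the medians of the mitosis and replication lists were 0.39 and 0.76. Ccnd1 on Cre- 4 was 438, the highest control and below every Cre+ mouse. Whether the replication and mitosis lists differ was not tested.

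**Figure D5:**
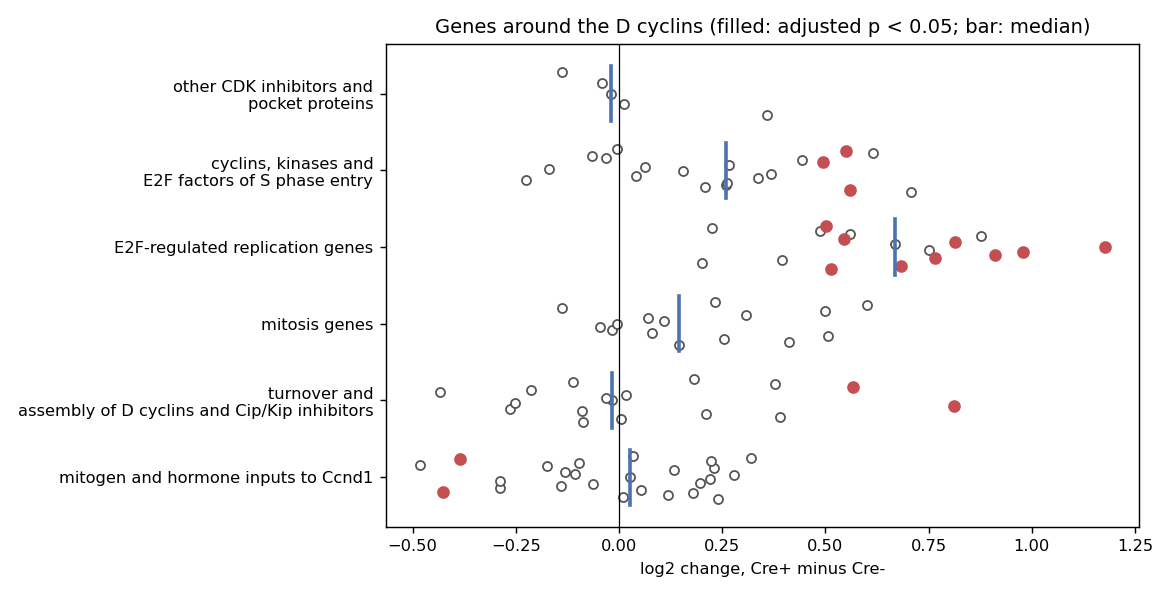
Log2 change (Cre+ minus Cre-) of each tested gene in 6 lists around the D cyclins, filled red where the adjusted p was under 0.05, with a bar at each list's median. The replication genes lie to the right of 0 with a median of 0.67, and the mitosis genes, with a median of 0.14, have no filled point.

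Of 17 genes for the turnover and assembly of D cyclins and p21 or p27, Skp2, the ubiquitin ligase subunit that marks p27 for destruction, rose by 0.57 (SE 0.09) and Dtl, the substrate receptor that marks p21 and Cdt1, rose by 0.81 (SE 0.16), and 0 fell. Skp2 was at 39.9, 44.1 and 44.8 in Cre- and 67.2, 63.8 and 59.7 in Cre+ cells, with adjusted p = 0.0222 in limma. Dtl was at 40.2, 41.0 and 56.5 in Cre- and 92.3, 75.9 and 71.8 in Cre+ cells, with adjusted p = 0.0369. The median of this list was -0.02. An unadjusted p under 0.05 in limma was reached by 8 of the 17, against 20.0% of all tested probe sets. Besides Skp2 and Dtl, these were Trp53 (0.38) and Cks1b (0.39), higher in Cre+, and 4 genes that were lower. The lower ones were Pim1 (-0.43), Ddb1 (-0.26), Fbxo31 (-0.25) and Rnf123 (-0.21). In this list 1 gene passed when Cre- 1 was left out and 0 when Cre- 2, Cre+ 5 or Cre+ 6 was, against 4 with Cre- 1 and Cre+ 7 both left out. Over all tested probe sets the fits without Cre- 2, Cre+ 5 or Cre+ 6 called 118, 46 and 52, against 706 with all arrays. Dtl was also lost without Cre+ 7. Protein stability, on which these enzymes act, was not measured.

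Of 25 mitogen and hormone inputs to Ccnd1, 0 rose and 2 fell, with a median change of 0.03. Tnfrsf11a, the receptor of RANK ligand, was at 153, 149 and 151 in Cre- and 115, 114 and 118 in Cre+ cells (-0.39, SE 0.07, adjusted p = 0.0310 in limma). Elf5, a transcription factor of alveolar cells that is also among the 12 luminal alveolar markers above, fell by 0.43 (SE 0.09, adjusted p = 0.0462 in limma). With Cre- 1 left out Elf5 passed (adjusted p = 0.0162) and Tnfrsf11a did not (0.0533), and neither passed with any other single array left out. Those other fits called between 46 and 291 probe sets in all, against 706 with all arrays. The ligand Tnfsf11 and the progesterone receptor Pgr, named after their values were seen, had log2 changes of 0.32 (SE 0.13, adjusted p = 0.211) and 0.23 (SE 0.07, adjusted p = 0.125) in limma. Pgr was dim, at 23.1, 23.0 and 23.8 in Cre- and 26.0, 30.9 and 25.3 in Cre+ cells, near the filter level of 22.4. The largest change of the list in size was that of Stat5a, -0.48 (SE 0.13), which was not called (adjusted p = 0.0838 in limma).

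The 5 genes whose centred log2 profile over the 6 arrays was nearest to that of Ccnd1, by root mean square difference, were Mcm6 (0.23), Hells (0.28), Pdpn (0.29), Vcan (0.29) and Adamts18 (0.29). Hells, a chromatin remodelling helicase, was at 97.2, 92.2 and 137 in Cre- and 285, 215 and 259 in Cre+ cells. Vcan, which encodes versican of the extracellular matrix, was at 44.5, 50.4 and 46.5 in Cre- and 173, 189.6 and 155 in Cre+ cells. The choice by likeness to Ccnd1 fixes that these profiles follow the genotypes.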

How the data were processed

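The authors deposited 1 linear intensity per probe set and array, which per the labels is the RMA expression value (robust multi-array averaging over core exons) of the Expression Console software. The labels name no version, genome build or annotation release. The 2 deposited tables held identical values, from 18.7 to 10919. The authors' deposited ratio (Cre+ over Cre- mean) and p-value (a t test per probe set, per the file headers) are printed only where named. An unadjusted, unpaired t test on linear intensity gave the deposited p-value within 0.0002 for 100% of probe sets.

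Log2 was taken of the deposited intensity. Probe sets naming 1 gene with a mean at or above the 30th percentile (log2 4.48, linear 22.4) were fitted with limma 3.58.1 in R 4.3.3 (lmFit, eBayes with intensity trend), two-sided, Benjamini-Hochberg adjusted over 16921 probe sets, with a threshold of 0.05. A log2 change is Cre+ minus Cre-. SE is from the moderated fit. The fit was tested on simulated data. No batch, litter or date is given in the labels, and 3 arrays per group limit the precision. Separate mice are stated by the labels' protocols.

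The members and lists were chosen with earlier results of these data known. By rule, named genes were the members, Insr, the 5 profiles nearest to Ccnd1 and up to 6 called genes of each list by smallest p. In a list with none called it was the gene with the smallest p. Other genes given by value, such as Stat5a, Car3, Cfd and Pim1, were named after their values were seen. Gene symbols were updated through RefSeq for list matching (21919 of 22984 single-name probe sets matched). Alternatives changed the filter, the scale, the centring, the variance model, the array weights, the named probe sets and the arrays used.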

Additional observations from a re-analysis of the deposited data

How the results depend on the processing

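The number of called probe sets, 706 in the analysis reported, was 1437 with array weights. With single arrays left out it lay between 46 (without Cre+ 5) and 781 (without Cre- 1). The number of members called, 2, was between 0 (without Cre+ 5 or Cre+ 6) and 2 with single arrays left out. It was 4 without Cre- 1 and Cre+ 7 together, in a fit that called 954 probe sets in all. The added genes were Ccnd2 and Rb1, whose overlap that fit removed. The number of called genes over the 6 lists, 16, was 27 with array weights and between 0 and 18 with single arrays left out. Ccnd1 and Rbl1 passed under all alternatives that keep every array. The adjusted p there lay between 0.00503 and 0.0250 for Ccnd1 and between 0.00992 and 0.0301 for Rbl1 in limma. Both also passed without Cre- 1 and Cre+ 7 together (n = 2 and 2), at 0.00314 and 0.0422. Cdkn2c, not called in any fit, turned from -0.01 to 0.13 without Cre- 4 and to 0.03 without Cre+ 6, and was lowest, at -0.13, without Cre- 1. Array weights raised the calls among S phase entry genes to 5 and among replication genes to 15, and the fit without an intensity filter kept 1 of the 2 falls among the inputs. With single arrays left out, the log2 change of Ccnd1 relative to Ccnd3 lay between 1.01 and 1.51, that relative to Ccnd2 between 0.15 and 1.11, and that of Ccnd2 relative to Ccnd3 between 0.39 and 0.87. No paired analysis was possible because the groups share no mouse number. Dim probe sets such as Cdkn1a, near the lowest signal of the arrays, allow no statement about small changes.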

Other observations

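A further 3 probe sets name a member together with another gene and stand outside the comparison. The probe set naming Ccnd2 and Gm7308 was at 617, 670 and 841 in Cre- and 661, 589 and 621 in Cre+ mice, lower on average in Cre+ with overlapping groups. The probe set naming Oraov1 and Ccnd1 was dim, at 41.6 ± 1.88 in Cre- and 40.3 ± 1.83 in Cre+ mice (SD, n = 3 and 3). The one naming Tspan31 and Cdk4 was at 349 ± 30.2 and 358 ± 10.4, also overlapping. Which transcripts these probes measure is not given in the sources used here.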
